A study of Mus musculus with 10 samples.

Results

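The Hox genes of clusters A to D were the 39 protein-coding mouse genes whose symbols consist of Hox, a cluster letter and a number, out of 22024 gene identifiers in the count table. A GRCm38 reference annotation (GENCODE vM21) held the same number of genes under that pattern. The table gives read counts of polyA RNA from lumbar cord, 1 library from each of 10 female mice that were 3 months old. A bacterial artificial chromosome (BAC) with human TARDBP sat at the Rosa26 locus in WT mice (n = 2, numbered 8 and 10), and M337V mice (n = 5, numbered 1, 2, 3, 7 and 9) held that BAC with the M337V mutation, which is linked to amyotrophic lateral sclerosis. Nontransgenic mice (NTg, n = 3, numbered 4, 5 and 6) served as controls. The protein made from TARDBP is TDP-43, which binds RNA in the nucleus. Per the series text, both lines came from embryonic stem cells that had taken up the BAC at a prepared site, all mice were of C57BL/6 background after backcrossing to C57BL/6J, and the controls were littermates of matched age. The BAC carries human genomic sequence around the gene, and no cell-type promoter or Cre is named in the sources used here. The labels do not say whether the mice used were homozygous or heterozygous.

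Hox genes encode homeodomain transcription factors that give cells their address along the head to tail axis. Mammals hold them in 4 clusters, in which genes of the same number (a paralog group) descend from one ancestral gene. Genes at one end of a cluster, with low numbers, are switched on early and reach far forward into the hindbrain, whereas genes with high numbers are switched on later and stay in the tail end of the body. In the spinal cord the groups around 4 to 8 are used at neck and forelimb levels, group 9 at trunk levels, groups 10 and 11 at the hindlimb levels that make up the lumbar enlargement, and groups 12 and 13 near the tail. There they sort motor neurons into columns and muscle-specific pools, together with cofactors of the Pbx and Meis families. Part of this code is still read out in adult cord, so the Hox profile of a piece of cord carries information on the level it was taken from.

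Cluster A lay on chromosome 6 of GRCm38 (52155590 to 52260880, 11 genes on the minus strand) and cluster B on chromosome 11 (96194316 to 96368256, 10 genes on the plus strand). Cluster C (chromosome 15, 102921103 to 103036852) and cluster D (chromosome 2, 74668310 to 74765142) held 9 genes each on the plus strand. RefSeq promoter windows of the GRCm38.p6 build were at hand for 22 of the 39 genes. The windows of 4 genes on which the results below turn are given as the 250 bases before the annotated start, or before the start nearest the 3′ end where a gene has several. Hoxa10, Hoxd10 and Hoxd11 are lumbar genes whose levels separated the libraries, and Hoxb8 was the most strongly expressed member. Capitals mark matches on either strand to 3 motifs, namely TTTATG (a core of sites bound by Cdx and posterior Hox proteins), TGATNNAT (a core of joint Pbx and Hox sites) and TATAAA (the TATA box).
Hoxa10, chr6:52234940-52235189, minus strand, inside the Hoxa10 gene model: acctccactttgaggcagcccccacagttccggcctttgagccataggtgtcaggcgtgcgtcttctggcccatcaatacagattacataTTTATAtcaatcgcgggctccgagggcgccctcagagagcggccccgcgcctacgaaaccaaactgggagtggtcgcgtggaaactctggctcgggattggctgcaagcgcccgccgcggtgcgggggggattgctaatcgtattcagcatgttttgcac
Hoxd10, chr2:74691641-74691890, plus strand, inside the gene model Gm28309: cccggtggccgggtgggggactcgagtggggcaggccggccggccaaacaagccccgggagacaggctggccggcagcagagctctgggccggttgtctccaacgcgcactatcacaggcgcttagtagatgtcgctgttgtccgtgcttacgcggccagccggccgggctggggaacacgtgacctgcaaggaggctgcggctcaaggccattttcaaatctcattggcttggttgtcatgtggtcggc
Hoxd11, chr2:74682073-74682322, plus strand, inside the Hoxd11 gene model: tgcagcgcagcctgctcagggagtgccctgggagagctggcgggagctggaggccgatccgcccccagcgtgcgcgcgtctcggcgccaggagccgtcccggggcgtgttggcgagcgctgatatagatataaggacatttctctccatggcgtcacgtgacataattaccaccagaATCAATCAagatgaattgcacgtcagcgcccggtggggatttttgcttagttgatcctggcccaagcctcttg
Hoxb8, chr11:96281655-96281904, plus strand, in no annotated gene: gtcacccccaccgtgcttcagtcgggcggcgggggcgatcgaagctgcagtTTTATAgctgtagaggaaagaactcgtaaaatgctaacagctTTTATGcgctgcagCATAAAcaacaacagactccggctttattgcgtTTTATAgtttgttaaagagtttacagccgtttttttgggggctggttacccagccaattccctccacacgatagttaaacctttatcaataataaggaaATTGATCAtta
None of these windows touched an annotated exon. The Hoxb8 window held 2 TTTATG, 1 TGATNNAT and 2 TATAAA matches, that of Hoxa10 held 1 TATAAA and that of Hoxd11 held 1 TGATNNAT, while the Hoxd10 window held none, and no matches of different motifs overlapped in them. These 22 genes have 24 windows. TTTATG was present in 5 of 24 Hox windows and in 10.8% of all 32851 windows of this length, TGATNNAT in 4 of 24 and in 7.68%, and TATAAA in 4 of 24 and in 12.4%. Hox windows held a median of 12.5 CG dinucleotides, against 6 over all windows. A match is a description of the sequence and not a mapped binding site.

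Library totals lay between 18724888 and 21041474 counts, and the Hox genes together took 0.0869% to 0.109% of them. Human TARDBP reads were present in the library labelled NTg 4 (2415 counts), as in the transgenic libraries (2192 to 2723), but hardly in NTg 5 (1 count) and NTg 6 (4 counts). That library went against its label, and every comparison with NTg below includes it unless stated. Levels are given as TMM-scaled CPM, that is, counts per 1000000 of a library size corrected for composition. Where values follow one another, those of NTg are in the order of the library labelled NTg 4, then NTg 5 and 6, those of WT in the order 8 and 10, and those of M337V in the order 1, 2, 3, 7 and 9. The labels do not name the segments dissected. WT 8 and M337V 3 stood apart from the other 8 libraries in the Hox genes themselves, as described below, and results that rest on them are given with and without them. In whole tissue, fewer cells of a type and less RNA per cell cannot be told apart.

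Counts of Hox genes peaked at paralog group 8 (the profile by paralog group), and 9 of the 10 libraries held counts of all 13 groups, while WT 8 had 0 in group 12. Summed over its 3 genes, group 8 stood at 290 to 420 CPM, group 9 at 119 to 196 CPM and group 10 at 12.4 to 170 CPM. Groups 12 and 13 never exceeded 4.34 and 9.06 CPM. Compared between genes per kilobase of exon, Hoxb8 was highest (79.1 ± 8.84 CPM per kb, SD over 10 libraries), followed by Hoxb9 (35.2 ± 5.68). Hoxc8 (27.4 ± 15.1), Hoxd8 (27.3 ± 2.79), Hoxc10 (27.2 ± 13) and Hoxa7 (25.8 ± 3.08) came next and were not separable beyond their spread. The lowest were Hoxb1 and Hoxd12, each with 6 counts or fewer in every library. These 2 genes did not pass the filter on low counts, so that 37 members were tested. Lengths are those of the merged exons of the reference. Reads of Hoxd3 and Hoxd4 cannot be assigned with certainty, because 62.3% and 52.3% of their exon bases are shared with each other or with the readthrough model Gm28230. On the opposite strand 52.9% of Hoxb3 exon bases are covered by Hoxb3os and 35.0% of Hoxa11 by Hoxa11os, and while the library kit marks strand, per the labels, the strand setting of the counting was not stated in the sources.

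**Figure D1:**
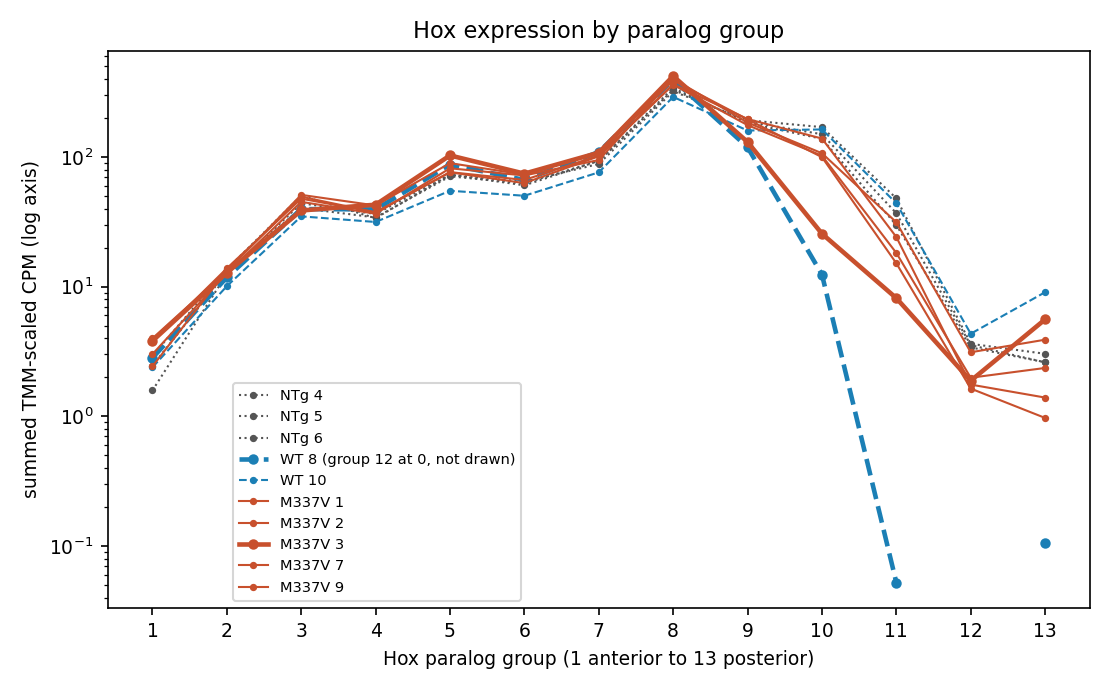
Summed TMM-scaled CPM (log axis) of the Hox genes of each paralog group, 1 to 13, with 1 line per library; NTg dotted, WT dashed, M337V solid, and WT 8 and M337V 3 drawn thick. WT 8 and M337V 3 lie within or near the range of the other lines up to group 8, are lowest in group 9 and drop to 12.4 and 25.6 CPM in group 10.

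Anterior members were detected at this lumbar level and varied less than posterior ones. Hoxb3, which acts in hindbrain and anterior cord and was the strongest member of groups 1 to 3, stood at 31.8, 24 and 27.2 CPM in NTg, 22.7 and 20.3 in WT, and 33.5, 28.8, 23.0, 30.6 and 27.5 in M337V. The 2 WT libraries were the lowest, with M337V 3 just above them. Hoxc4, a gene of neck and forelimb levels, stood at 11.6, 12.6 and 15.6 CPM in NTg, 16.1 and 12 in WT, and 18.3, 13.4, 19.3, 15.1 and 14.8 in M337V. All groups overlapped. Other tested members of these groups were lower and included Hoxd1 at 1.16 to 2.61 CPM and Hoxa2 at 1.95 to 3.86. Hoxb2 ran from 8.14 to 10.4 CPM, Hoxa3 from 9.69 to 13.5 and Hoxb4 from 7.79 to 11.7. Hoxd3 and Hoxd4, whose reads are uncertain, ran from 4.87 to 6.45 and from 5.23 to 7.73 CPM.

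Group 5 to 7 genes, which pattern forelimb and upper trunk cord, included members in which WT 8 and M337V 3 were highest. Hoxa5, needed for phrenic motor neurons in the neck, stood at 27.9, 27.1 and 28.4 CPM in NTg, 36.6 and 21.6 in WT, and 34.5, 28.1, 40.6, 27.5 and 27.8 in M337V. Its highest values were in M337V 3 and WT 8 and its lowest in WT 10. For Hoxb6 the values were 39.6, 37.6 and 36.6 CPM in NTg, 30.3 and 29.0 in WT, and 41.0, 38.1, 35.7, 37.6 and 39.5 in M337V, so that both WT libraries lay below all others. Hoxa7 stood at 65.6, 71.4 and 69.9 CPM in NTg, 85.7 and 58.9 in WT, and 80.9, 75.1, 86.9, 78.5 and 70.1 in M337V, again with M337V 3 and WT 8 highest and WT 10 lowest. Of the other members, Hoxa6 ran from 5.70 to 9.03 CPM, Hoxb5 from 29.2 to 46.0 and Hoxb7 from 17.2 to 27.5, each lowest in WT 10. Counted over groups 1 to 8, WT 10 was the lowest of the 10 libraries for 14 of 22 tested members and M337V 3 the highest for 8, whereas WT 8 was the lowest, or tied at 0, for all 11 tested members of groups 10 to 13.

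Hoxb8, known for roles in dorsal horn sensory circuits and in a microglial lineage, stood at 217, 219 and 225 CPM in NTg, 181 and 159 in WT, and 224, 211, 192, 228 and 226 in M337V. The WT libraries were below every other library. Hoxb9, a trunk gene, stood at 99.0, 89.9 and 93.5 CPM in NTg, 70.7 and 62.8 in WT, and 102, 87.6, 96.2, 92.7 and 113 in M337V. Here too both WT libraries were below every other. Hoxc8, which defines motor pools of the lower forelimb levels, behaved in another way. Its levels were 35.5, 49.7 and 41.9 CPM in NTg, 143 and 43.3 in WT, and 86.2, 65.5, 155, 56.0 and 101 in M337V. All 5 M337V libraries exceeded all NTg libraries, WT 8 was as high as M337V 3, and WT 10 lay within the NTg range. Hoxd8, by contrast, ran from 63.0 to 88.4 CPM, with NTg 6 lowest and WT 10 highest.

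Group 10 genes specify the lumbar motor columns that innervate the hindlimb. Hoxc10 stood at 76.6, 66.9 and 70.8 CPM in NTg, 9.68 and 73.5 in WT, and 48.9, 51.1, 9.93, 67.5 and 44.9 in M337V. Hoxa10 stood at 47.1, 43.0 and 46.7 CPM in NTg, 2.62 and 47.5 in WT, and 34.9, 31.7, 7.99, 43.7 and 35.1 in M337V. Hoxd10 stood at 46.2, 28.1 and 32.2 CPM in NTg, 0.105 and 42.0 in WT, and 15.9, 19.5, 7.68, 27.5 and 26.8 in M337V. For each of the 3 genes WT 8 was lowest and M337V 3 second lowest, whereas WT 10 stood among or next to the NTg libraries. In WT 8 the values rested on 185 counts of Hoxc10, 50 of Hoxa10 and 2 of Hoxd10. Against the median of the other 9 libraries, Hoxc10 was 6.91-fold lower in WT 8 and 6.74-fold lower in M337V 3, and Hoxa10 was 16.4-fold and 5.38-fold lower.

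Group 11 genes, used at the lower lumbar and sacral levels, were at or near 0 in WT 8. Hoxa11 stood at 10.4, 6.45 and 8.10 CPM in NTg, 0 and 7.89 in WT, and 3.12, 4.08, 1.36, 5.69 and 4.16 in M337V. Hoxc11 stood at 11.7, 7.44 and 8.38 CPM in NTg, 0.0523 (1 count) and 10.3 in WT, and 3.48, 3.86, 1.93, 4.96 and 9.46 in M337V. For Hoxd11 the values were 25.9, 16 and 20.3 CPM in NTg, 0 and 25.7 in WT, and 8.54, 10.2, 4.86, 13.5 and 17.7 in M337V. A count of 0 in WT 8 allows up to 3 counts (0.157 CPM), as far as counting error goes. M337V 3 was the lowest of the other 9 libraries for each of these genes. Every M337V library lay below every NTg library for Hoxa11, but for Hoxc11 and Hoxd11 the ranges of the groups overlapped through M337V 9. Hoxc12, a gene of the caudal end, followed with 3.57, 3.40 and 3.49 CPM in NTg, 0 and 4.34 in WT, and 1.64, 1.99, 1.83, 1.76 and 3.12 in M337V. The 3 NTg libraries were close together, WT 10 was highest, and all M337V libraries were lower than NTg.

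**Figure D2:**
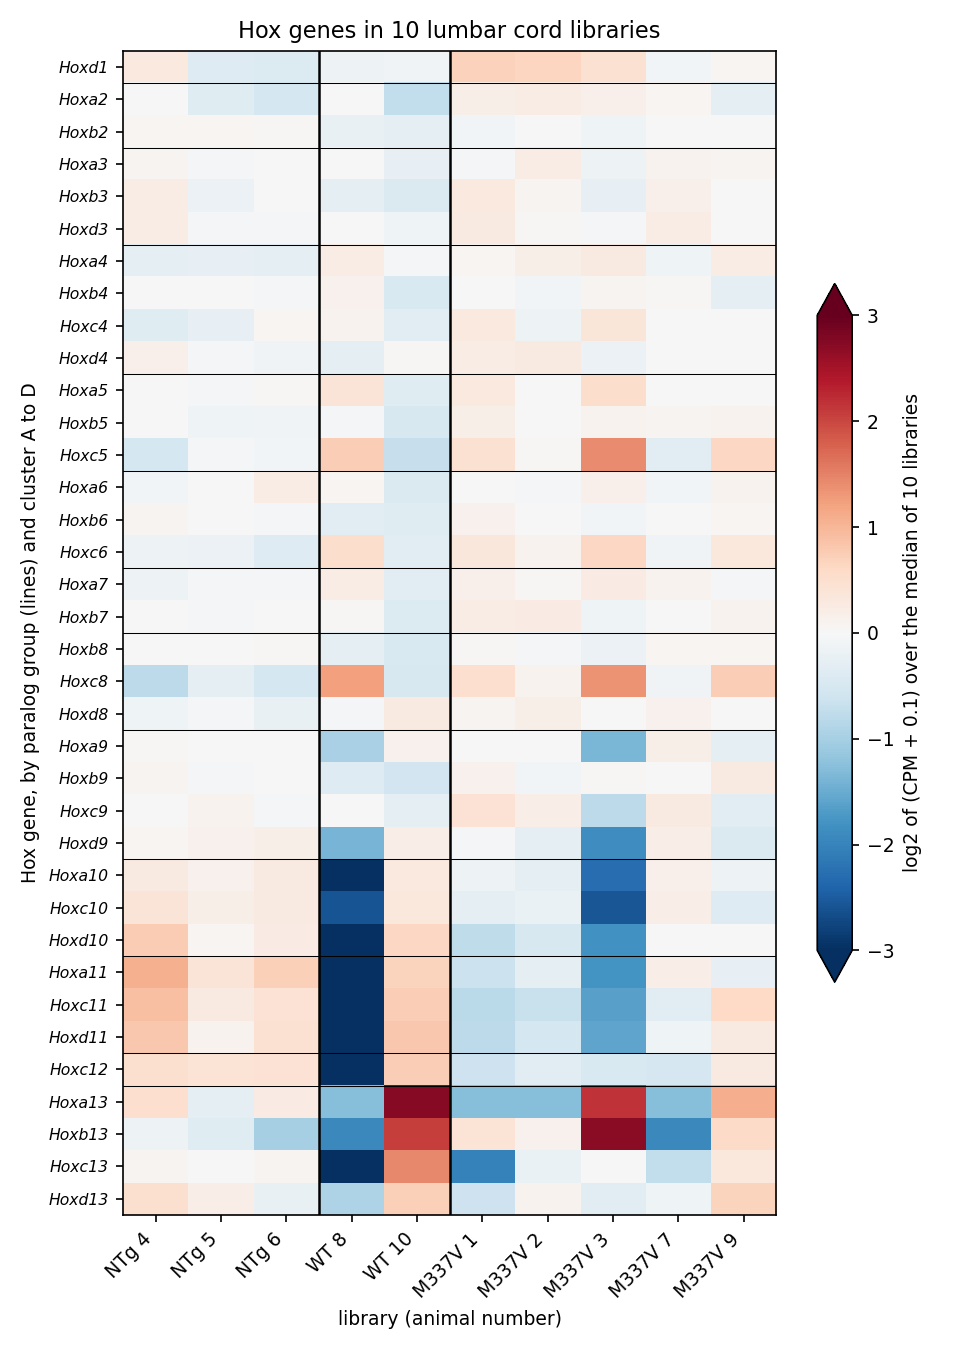
Levels of 36 Hox genes tested (rows, ordered by paralog group and cluster) in the 10 libraries (columns, grouped as NTg, WT and M337V), as log2 of CPM + 0.1 over the gene's median across libraries, with the colour scale limited to ±3. WT 8 and M337V 3 share low values of Hoxa9, Hoxd9 and the genes of groups 10 and 11 and high values of Hoxc8, and WT 10 and M337V 3 are high for Hoxa13 and Hoxb13.

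Taken as a block, groups 10 to 13 summed to 224, 174 and 193 CPM in NTg, 12.6 and 220 in WT, and 117, 125, 41.2, 166 and 145 in M337V. The mean was 197 ± 25.6 CPM in NTg (SD, n = 3), 116 ± 147 in WT (SD, n = 2) and 119 ± 47.4 in M337V (SD, n = 5). They made up 1.42% of Hox counts in WT 8 (95% exact binomial interval 1.25% to 1.61%) and 4.23% in M337V 3 (3.94% to 4.53%), against 10.9% to 23.7% in the other 8 libraries. These intervals cover counting error only. The mean paralog group, weighted by counts, was 7.09 in WT 8 and 7.19 in M337V 3, 7.44 to 7.64 in the other M337V libraries, 7.71 to 7.79 in NTg and 7.96 in WT 10. The spread of the members was widest in groups 10 to 13. The median coefficient of variation over the 10 libraries was 15.3% in groups 1 to 4, 12.2% in groups 5 to 7, 22.3% in groups 8 and 9 and 59.9% in groups 10 to 13, against 9.67% over all 15191 genes tested. Without WT 8 and M337V 3 it was 39.3% in groups 10 to 13, against 14.2%, 12.8% and 15.6% in the blocks before and 9.37% over all genes. That 39.3% is the value of Hoxd13, which had only 3 to 11 counts in those 8 libraries. There Hoxa10 and Hoxc10 varied by 15.4% and 19.6%, and Hoxd10 and the group 11 genes by 34.5% to 41.2%.

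The following genes were chosen after their values were seen, to show where in the clusters the profiles of WT 8 and M337V 3 turn. Relative to the median of the other 9 libraries, Hoxc8 was 2.55 times as high in WT 8 and 2.77 times in M337V 3. The ratios were 1.72 and 2.77 for Hoxc5 and 1.57 and 1.67 for Hoxc6, both genes of forelimb levels. In group 9 they fell to 0.508 and 0.386 for Hoxa9 and to 0.360 and 0.262 for Hoxd9. Hoxc9 gave 0.984 and 0.571, and Hoxb9 gave 0.756 and 1.04. At group 9 both libraries thus dropped in clusters A and D. In cluster C only M337V 3 did at this group, since Hoxc9 in WT 8 lay within the range of the others. WT 8 dropped in cluster C from Hoxc10 on (9.68 CPM, the lowest of all libraries). In cluster B WT 8 was low and M337V 3 was not, and WT 10 was lower still. The ratio of Hoxc8 to Hoxc10 counts, 2 genes of 1 cluster, was 14.8 in WT 8 and 15.6 in M337V 3, 0.829 to 2.25 in the other M337V libraries, 0.463 to 0.742 in NTg and 0.589 in WT 10. The other M337V libraries therefore lay between NTg and the 2 libraries that stand apart, without overlap.

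**Figure D3:**
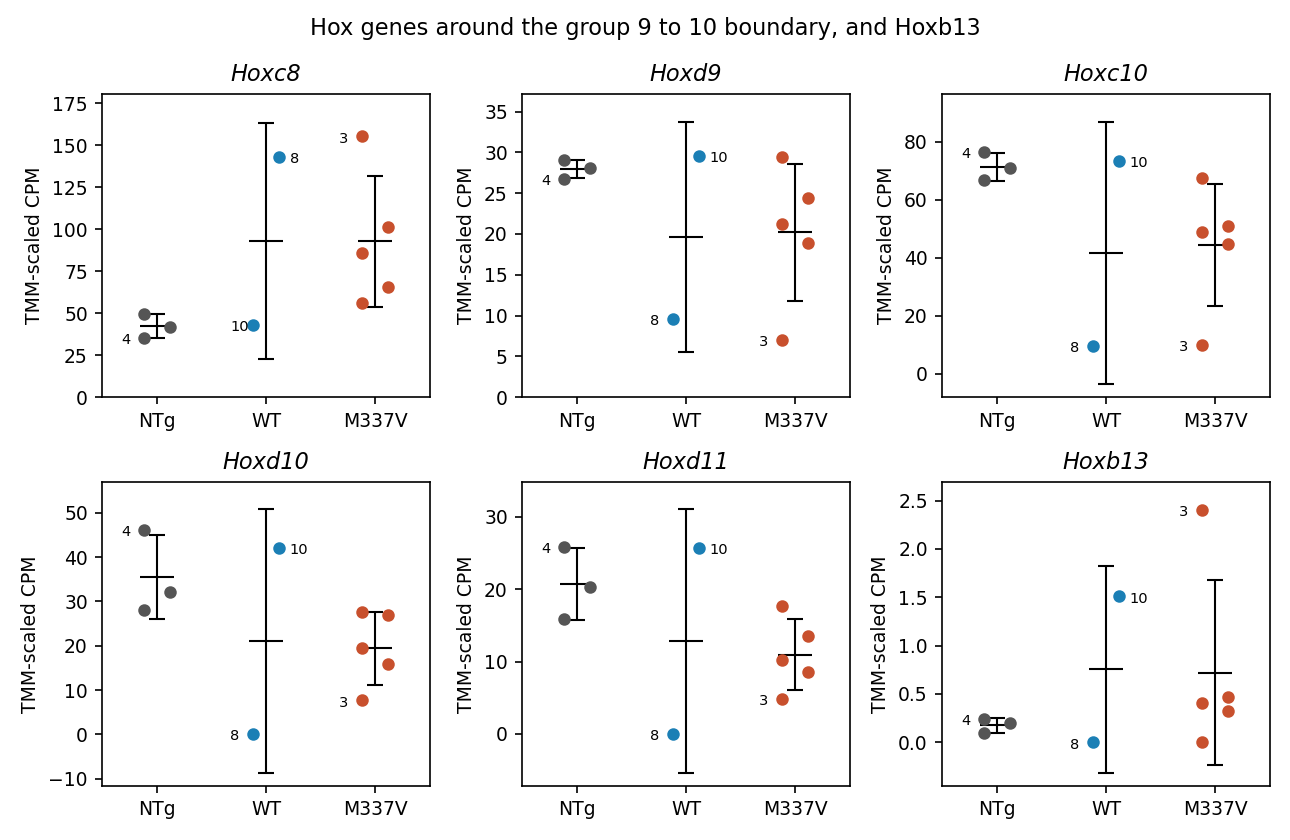
TMM-scaled CPM of Hoxc8, Hoxd9, Hoxc10, Hoxd10, Hoxd11 and Hoxb13 in each library (points), with the group mean and SD (bars, n = 3 NTg, 2 WT and 5 M337V); numbers mark the library labelled NTg 4, both WT libraries and M337V 3. WT 8 and M337V 3 lie together, high in Hoxc8 and low in Hoxd9 to Hoxd11, while M337V 3 and WT 10 have the highest Hoxb13 values.

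The 2 libraries with low lumbar genes differed from each other at the very end of the clusters. Hoxb13 and Hoxa13, genes of the tail bud and caudal end that were likewise chosen after their values were seen, had 46 and 19 counts in M337V 3 and 0 and 0 in WT 8. In WT 10 each had 31 counts, and the other 7 libraries held 0 to 9 counts of Hoxb13 and 0 to 8 of Hoxa13. Hoxc13 had 113 counts in WT 10, 38 in M337V 3, none in WT 8 and 8 to 48 elsewhere. Hoxd13, the last gene of its cluster, was low in every library (0.105 to 0.536 CPM). Per 100 counts of groups 10 and 11, groups 12 and 13 gave 22.1 counts in M337V 3, 6.47 in WT 10, 0.840 in WT 8 and 1.94 to 5.08 in the other 7 libraries. M337V 3 was thus low in groups 10 and 11 but not in group 13, where its summed level of 5.59 CPM was second to the 9.06 CPM of WT 10.

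Markers of neighbouring tissue and of other levels of the nervous system were read beside these values, as sums of CPM over each list. The 6 Schwann cell markers of nerve roots summed to 68.2 CPM in WT 8, 1051 in M337V 3, 1647 in the library labelled NTg 4 and 155 to 576 in the other 7 libraries. The 6 meningeal fibroblast markers summed to 42.0 CPM in WT 8, 341 in M337V 3, 463 in the library labelled NTg 4 and 58.5 to 202 elsewhere. The 2 libraries low in lumbar Hox genes thus held the lowest and the second highest level of both lists. The 6 motor neuron markers, all detected in every library, summed to 233 to 270 CPM in NTg, 327 and 351 in WT and 204 to 368 in M337V, with M337V 3 highest. Not all of the 6 separated WT from NTg. Slc5a7 did (178 and 186 CPM in WT, 104 to 118 in NTg), whereas Slc18a3 overlapped (48.9 and 48.4 CPM in WT, 41.6 to 49.1 in NTg). Of the remaining markers, some overlapped and some did not. Sensory ganglion markers summed to 4.02 CPM in M337V 3 and 0.912 to 2.25 CPM elsewhere, and Mrgprd was at 0 in 7 libraries. Of 13 brain and brainstem genes, Otx2 and Emx2 were among those at 0 in all libraries, and the list summed to 11 to 15.8 CPM. The 6 oligodendrocyte markers summed to 21805 to 26029 CPM in NTg, 32002 and 35738 in WT and 29468 to 36465 in M337V, and 6 skeletal muscle markers to 93.0 to 563 CPM in NTg, 316 and 13.9 in WT and 15.0 to 111 in M337V. The part of these tissues in the Hox values was not tested. The 4 genes of autonomic columns (Nos1, Slc18a3, Gata3 and Fev) summed to 122 to 132 CPM in NTg, 141 and 132 in WT and 112 to 124 in M337V.

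Between M337V and NTg, the comparison that addresses the mutant human gene, none of the 37 Hox genes passed an adjusted p of 0.05 in edgeR's quasi-likelihood test, against 4.29% of all genes (2.67% higher and 1.61% lower). At an unadjusted p below 0.05 there were 4 Hox genes, all higher in M337V, out of 3718 genes in all (1853 higher and 1865 lower). That was 10.8% of the Hox genes tested, a smaller share than the 24.5% of all genes. DESeq2 called 1 Hox gene (Hoxc6) among 1499 genes in all, and limma-voom 0 among 1315. Hoxa4, a gene of neck levels, had the smallest p (4.47 ± 0.0625 CPM in NTg, SD, n = 3, against 5.89 ± 0.619 in M337V, SD, n = 5). Its log2 difference was 0.40 ± 0.13 (SE, edgeR adjusted p = 0.0860), and it was higher in 5 of 5 M337V libraries than in any NTg library. Hoxc8 stood at 42.3 ± 7.11 CPM in NTg and 92.8 ± 39.1 in M337V, a log2 difference of 1.13 ± 0.38 (edgeR adjusted p = 0.10). The adjusted p of Hoxc8 was 0.0446 without WT 8, 0.0450 without WT 10, 0.0412 in a fit of both groups alone and 0.0451 without both WT 8 and M337V 3, where the log2 difference was 0.87. In the other 16 settings the adjusted p of Hoxc8 was 0.0691 or higher. Without the library labelled NTg 4 the log2 differences of Hoxa4 and Hoxc8 were 0.39 and 1.03 (edgeR adjusted p = 0.183 and 0.241). In that fit 0 Hox genes and 197 of 15132 genes passed.

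Of the 11 tested genes of groups 10 to 13, 9 were lower in M337V than in NTg, with a median log2 difference of -0.68 (all genes -0.01), and none reached an unadjusted p of 0.05. The library labelled NTg 4, which carries human TARDBP reads, was the highest of all libraries for 5 of these 11 genes. Hoxc10 and Hoxa11 were chosen for their values here after these were seen. Hoxc10 differed by -0.68 ± 0.53 and Hoxa11 by -1.17 ± 0.66 (edgeR adjusted p = 0.466 and 0.302). Without both WT 8 and M337V 3, libraries left out because of these same genes, Hoxa11 differed by -0.96 ± 0.21 (adjusted p = 0.0441) and Hoxc10 by -0.43 ± 0.12 (adjusted p = 0.0805). Without overlap, 5 members (Hoxa4, Hoxb5, Hoxc6, Hoxc8 and Hoxd8) were higher in every M337V than in every NTg library, against 9.51% of all genes, and 4 (Hoxb2, Hoxd10, Hoxa11 and Hoxc12) were lower, against 8.61%. Both shares of 37 lay near or a little above the background. By the library numbers in the labels, M337V 1 to 3 (TDP_10 to TDP_12) are numbered apart from the remaining libraries (TDP_2 to TDP_8). Within TDP_2 to TDP_8 groups 10 to 13 summed to 166 and 145 CPM in M337V 7 and 9 and to 174 to 224 CPM in NTg. There 0 of 35 Hox genes passed, but with only 3 of 15120 genes passing in all this says little about Hox genes. Both comparisons with NTg share their control libraries.

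Carrying the normal human gene is addressed by WT against NTg. Hoxb9, Hoxb6 and Hoxb8, genes of cluster B, were lower in WT and were the 3 of 37 members that passed, against 5.64% of all genes in either direction (2.05% lower and 3.59% higher). The mean of Hoxb9 was 94.1 ± 4.61 CPM over NTg (SD, n = 3) but 66.7 ± 5.58 over WT (SD, n = 2), and its log2 difference was -0.50 ± 0.10 (edgeR adjusted p = 0.0215). Hoxb6, a gene of upper trunk levels, fell from 37.9 ± 1.55 to 29.6 ± 0.926 CPM (log2 -0.36 ± 0.07, adjusted p = 0.0229), and Hoxb8 from 220 ± 3.93 to 170 ± 16.1 CPM (log2 -0.37 ± 0.08, adjusted p = 0.0264). Both WT libraries were below all 3 NTg libraries for each, as for Hoxb2 and Hoxb3. These 5 of 37 were a smaller share than the 22.1% of all genes with that order. Hoxa4 was the 1 member higher in both WT libraries, against 19.6% of all genes. At an unadjusted p below 0.05 were 5 members lower and 3 higher (21.6% of members, against 25.3% of all genes), DESeq2 called the same 3 genes among 1720 in all, and limma-voom 0 among 215. Over all genes, 857 passed in edgeR, but 283 without the library labelled NTg 4 and 44 without NTg 6. The log2 difference of Hoxb9 was -0.45 and -0.50 in those 2 fits. The 3 calls were lost without the library labelled NTg 4 (adjusted p = 0.0602 for Hoxb9, 0.0697 for Hoxb6 and 0.0607 for Hoxb8) without NTg 6 (0.0748, 0.0697 and 0.0880) and without WT 10 (0.112, 0.102 and 0.146). The call of Hoxb6 was also lost without WT 8 (0.0570), and all 3 without both the library labelled NTg 4 and WT 8 (0.0784, 0.106 and 0.0620).

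The members of cluster B were then read together, a choice made after their values were seen. All 8 tested members of its groups 1 to 9 were lower in WT than in NTg, with a median log2 difference of -0.34 (all genes -0.02), whereas 4 of 8 were lower in the same groups of cluster A, 1 of 5 in cluster C and 3 of 5 in cluster D. Their summed level was 472, 451 and 464 CPM in NTg, 389 and 333 in WT, and 494, 455, 433, 476 and 494 in M337V. Both WT libraries were below all others. Cluster C in the same groups ran differently, with 80.9, 98.3 and 90.1 CPM in NTg, 210 and 84.6 in WT, and 154, 120, 229, 108 and 160 in M337V. There WT 8 and M337V 3 were highest and WT 10 lay with NTg. As a share of Hox counts, groups 1 to 9 of cluster B made up 44.0% in WT 8 and 35.8% in WT 10, against 44.4% to 45.9% in NTg and M337V. These genes are neighbours on 1 chromosome and are not replicates of the condition.

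**Figure D4:**
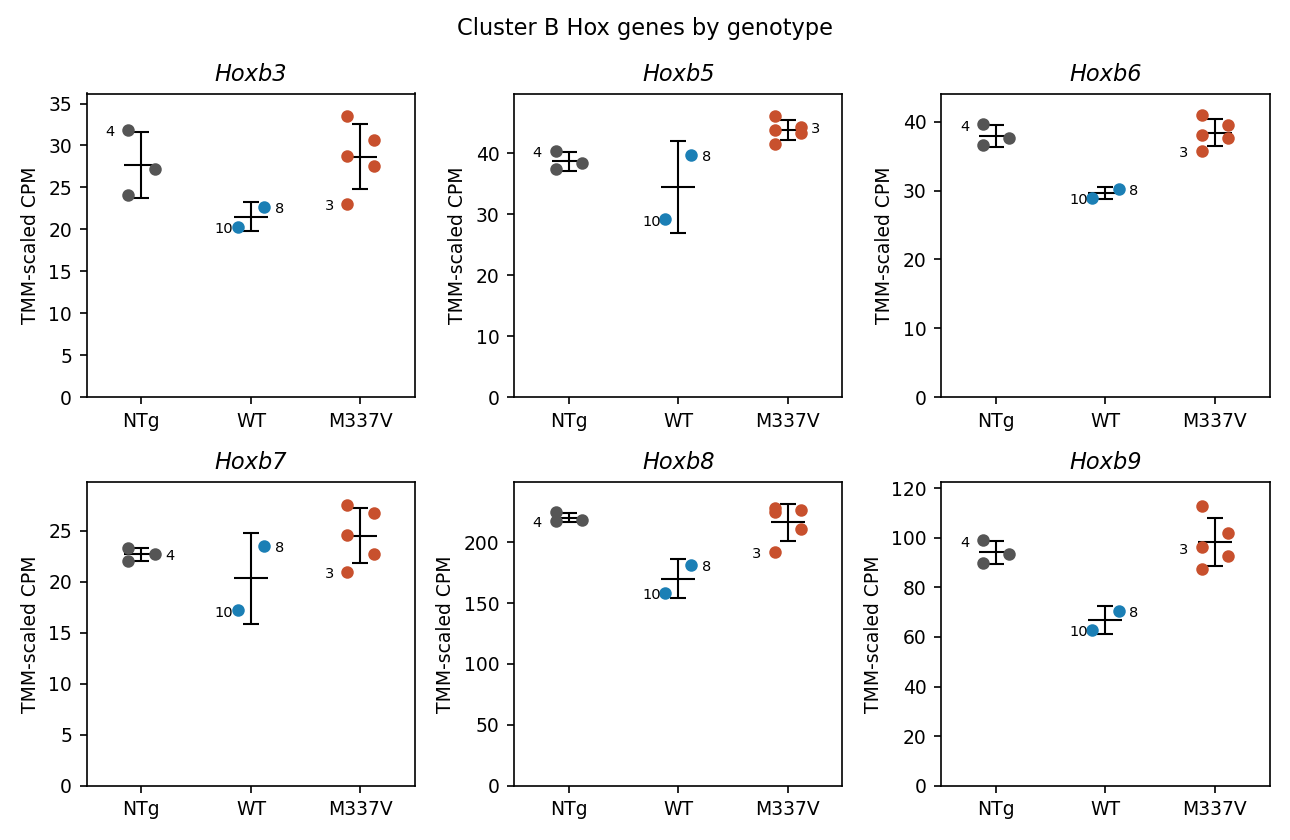
TMM-scaled CPM of 6 cluster B genes in each library (points), with the group mean and SD (bars, n = 3 NTg, 2 WT and 5 M337V); numbers mark the library labelled NTg 4, both WT libraries and M337V 3. For Hoxb3, Hoxb6, Hoxb8 and Hoxb9 both WT libraries lie below all others, and for Hoxb5 and Hoxb7 only WT 10 does.

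The genes of groups 10 to 13 gave no call between WT and NTg (8 of 11 lower, median log2 difference -0.68), and WT 8 was the lowest library, or tied at 0, for all 11, whereas WT 10 was the highest for 5. Hoxc10, for example, differed by -0.78 ± 0.69 (edgeR adjusted p = 0.521), with 9.68 CPM in WT 8 and 73.5 in WT 10. Without WT 10, so that WT 8 stood alone for its group, 7 members passed, all lower (Hoxa10, Hoxd10, Hoxa11, Hoxc11, Hoxd11, Hoxc12 and Hoxc13), among 265 of 15486 genes. Without WT 8 there were 3 (Hoxb5, Hoxb8 and Hoxb9), among 246 of 15462. Without both WT 8 and M337V 3 there were 5, among 650 of 15445, with Hoxb5, Hoxb6, Hoxb8 and Hoxb9 lower and Hoxd8 higher in WT 10. In each of these fits the lone WT library is assumed to vary like the other groups.

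M337V against WT compares the mutant with the normal human gene. No Hox gene and no other gene passed (0 of 37 and 0% of all 15191 in edgeR). At an unadjusted p below 0.05 were 6 Hox genes, all higher in M337V, among 1012 genes in all (540 higher and 472 lower). That was 16.2% of members, against 6.66% of all genes. All 6 were neighbours in groups 1 to 9 of cluster B and rested on the same 2 WT libraries. DESeq2 called 3 Hox genes (Hoxb6, Hoxb8 and Hoxb9) among 30 genes. In limma-voom 0 of all 15191 genes passed, so 0 Hox genes was the only possible outcome there. Hoxb9 had the smallest p of the members, at 98.3 ± 9.73 CPM in M337V (SD, n = 5) and 66.7 ± 5.58 in WT (SD, n = 2). Its log2 difference was 0.56 ± 0.09 (edgeR adjusted p = 0.176, DESeq2 adjusted p = 3.8e-05). Hoxb6 differed by 0.37 ± 0.07 (edgeR adjusted p = 0.237, DESeq2 adjusted p = 0.0135). All 8 members of cluster B in groups 1 to 9 were higher in M337V (median log2 difference 0.35, all genes 0.00). Every M337V library exceeded both WT libraries for 7 members (Hoxd1, Hoxb2, Hoxb3, Hoxb5, Hoxb6, Hoxb8 and Hoxb9), a larger share than the 4.85% of all genes, and for none was the order the other way, against 4.65%. This comparison shares its WT libraries with the preceding one. Groups 10 to 13 gave a median log2 difference of -0.12 with 9 of 11 lower.

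**Figure D5:**
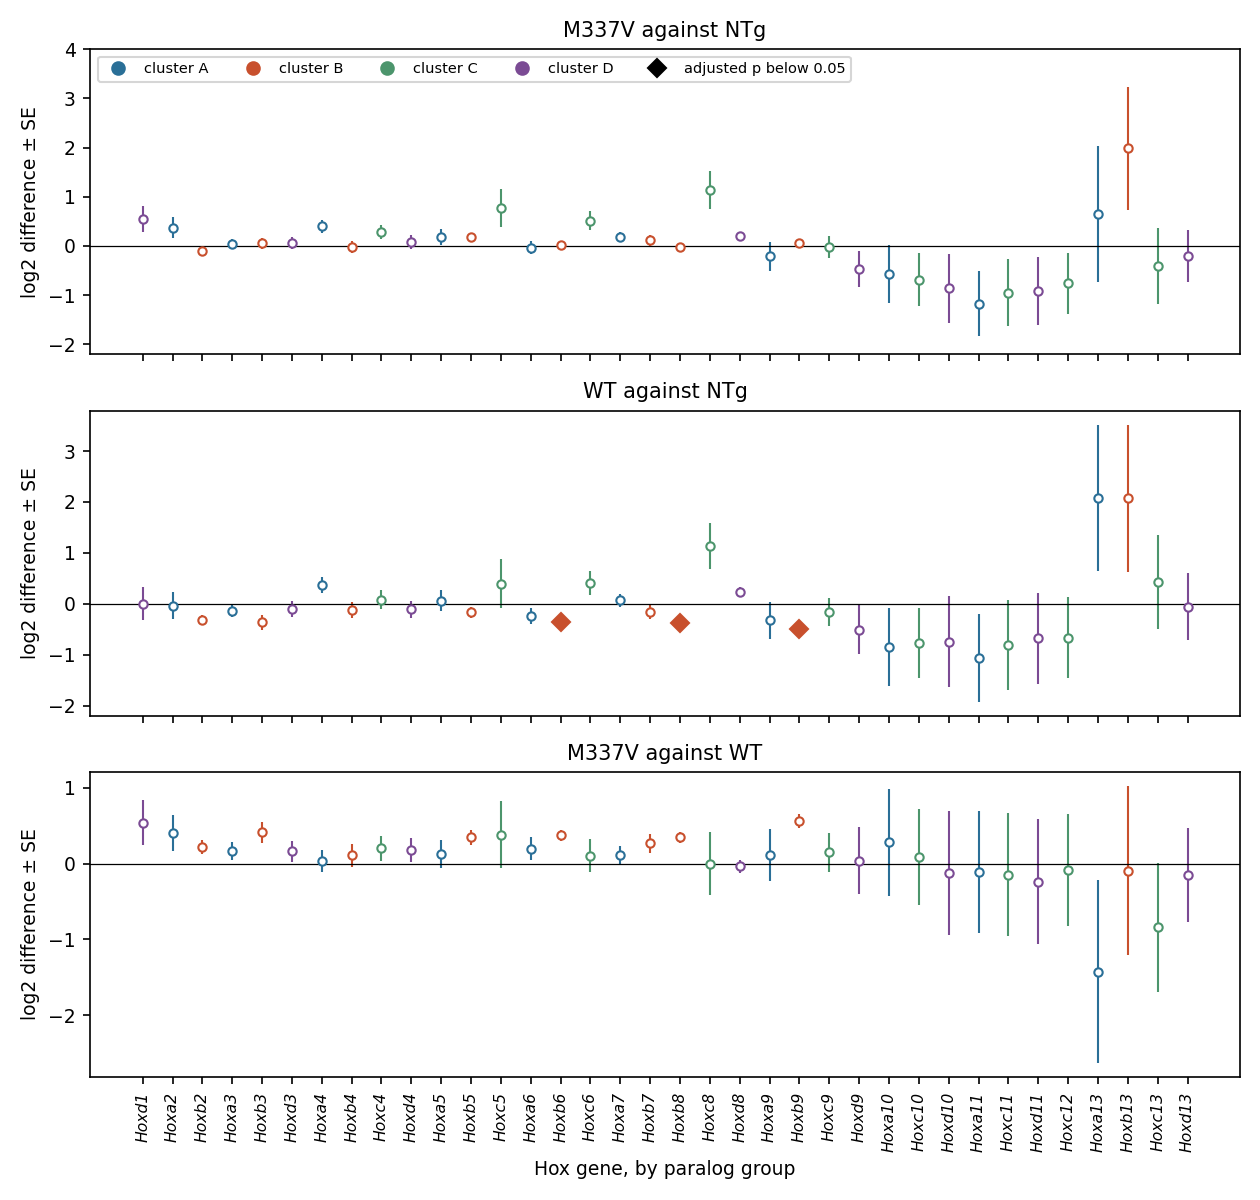
Log2 difference ± SE of 36 tested Hox genes in the 3 comparisons, from the edgeR fit over all 10 libraries; colours mark the cluster and filled diamonds an adjusted p below 0.05. Hoxb6, Hoxb8 and Hoxb9 are the 3 filled points, in WT against NTg, and the widest error bars belong to the genes of groups 10 to 13.

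A few calls were found among genes that act with the Hox genes or regulate them. Over all genes tested, 4.29% were called in M337V against NTg and 5.64% in WT against NTg. These shares are the background for all lists below. Of the 9 cofactor genes of the Pbx, Meis and Pknox families, which bind DNA with Hox proteins, Pbx3 rose in M337V against NTg (38.0 ± 1.94 to 46.6 ± 2.41 CPM, log2 0.29 ± 0.07, edgeR adjusted p = 0.0397) and in WT against NTg (0.37 ± 0.08, 0.0314), and Pknox2 fell in WT (32.1 ± 0.501 to 22.7 ± 0.111 CPM, log2 -0.50 ± 0.07, 0.0107). Of 21 Polycomb and Trithorax genes, which keep Hox genes silent or active, Bmi1, a Polycomb subunit, rose in both comparisons with NTg (56.2 ± 2.74 CPM in NTg, 67.8 ± 2.69 in M337V and 73.8 ± 2.80 in WT). Its log2 differences were 0.27 ± 0.05 (adjusted p = 0.0255) and 0.39 ± 0.07 (0.0123), and Cbx7, a reader of the Polycomb mark, fell in WT (-0.35 ± 0.09, 0.0420). The list medians were -0.06 in M337V and -0.04 in WT, close to that of all genes. Against 20 other settings the call of Pknox2 held in 19 and that of Bmi1 in 14 for M337V and 17 for WT. The calls of Pbx3 held in 12 and 13 and that of Cbx7 in 9. Without NTg 6 the calls of Pbx3, Bmi1 and Cbx7 were all lost, and without the library labelled NTg 4 those of Pbx3, of Cbx7 and of Bmi1 in M337V. Highest adjusted p over the settings was 0.302 for Pbx3, 0.216 for Bmi1 and 0.174 for Cbx7.

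Retinoic acid switches on anterior Hox genes in the embryo. Of 17 genes of its pathway 15 were tested, and Aldh1a1, a retinaldehyde dehydrogenase, rose from 194 ± 27.3 CPM in NTg to 263 ± 5.72 in M337V (log2 0.44 ± 0.07, edgeR adjusted p = 0.0189) and 258 ± 7.39 in WT (log2 0.41 ± 0.09, adjusted p = 0.0284). It was the 1 member that passed in either comparison. The call ended without NTg 6, and also without M337V 2 in M337V against NTg and without the library labelled NTg 4, WT 8 or WT 10 in WT against NTg (highest adjusted p over 20 other settings 0.193 and 0.112). In WT against NTg 14 of the 15 were lower, with a median log2 difference of -0.32 (all genes -0.02). In M337V against WT, where no gene of any kind was called, 13 of 15 were higher (median 0.26). The meningeal fibroblast markers, none of which is on this list, summed to 42.0 and 100 CPM in WT, 110 to 463 in NTg and 58.5 to 341 in M337V, and their part in these medians was not tested. Of 7 other axial inducers, the Cdx genes among them, 1 was expressed enough to be tested and it did not pass. Of 12 motor column transcription factors Onecut2 rose in WT against NTg (11.4 ± 0.384 to 15.7 ± 1.43 CPM, log2 0.46 ± 0.12, adjusted p = 0.0445), a call that held in 7 of 20 other settings (highest adjusted p 0.200) and ended without any 1 NTg or WT library or M337V 1, 2 or 9, and 0 passed in M337V against NTg.

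The genes that flank the clusters were read for comparison, the 3 nearest protein-coding genes on each side. Of 24 such genes 23 were tested, and 2 were called in each comparison with NTg, against 4.29% (M337V) and 5.64% (WT) of all genes. Lnpk, a gene of the endoplasmic reticulum 88.9 kb from cluster D, stood at 59.4, 57.8 and 54.6 CPM in NTg, 87.5 and 80.7 in WT, and 67.8, 70.6, 82.9, 70.7 and 69.0 in M337V. It rose against NTg in both M337V (log2 0.34 ± 0.07, edgeR adjusted p = 0.0290) and WT (0.55 ± 0.09, 0.0108), and WT 8 and M337V 3 were its highest and second highest of all libraries. The calls held in 15 of 20 other settings for M337V (highest adjusted p 0.179, with losses without any 1 NTg library or without M337V 2) and in 18 of 20 for WT (0.0598, lost without NTg 6). Cbx5, a heterochromatin protein gene near cluster C, rose in M337V (0.17 ± 0.04, 0.0434), and Snx10, a sorting nexin gene near cluster A, in WT (0.31 ± 0.08, 0.0476). Each of these 2 calls held in 9 of 20 other settings, and both ended without any 1 of the NTg libraries (highest adjusted p over the settings 0.273 and 0.184). Evx2, a homeobox gene 8.75 kb beyond the posterior end of cluster D, stood at 0.732 to 1.61 CPM over all libraries, and Evx1, beyond the posterior end of cluster A, at 0.838 to 1.96 CPM. Evx2 was lowest in M337V 3 (14 counts) and WT 8 (16 counts), with 17 to 33 counts in the other libraries. Hoxd10 and Hoxd11 had 147 and 93 counts in M337V 3 and 2 and 0 in WT 8. In M337V against WT 0 of all 15191 genes were called, so none of these lists could hold a called member there.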

How the data were processed

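PolyA RNA of lumbar spinal cord was sequenced from 10 mice, 1 library each. The authors deposited a table of whole-number read counts per Ensembl gene, without normalisation. The aligner STAR 2.4.2a, the counting tool featureCounts and the Subread package (1.4.6) appear in the list, per the submitters' processing notes, as do Trimmomatic 0.32, Salmon 0.8.2, FastQC 0.11.2, Picard 2.6.0 and, in R 3.3.0, DESeq2 1.14.1, with no role for any. The build, annotation and strand setting behind the counts were not given in the sources used here. Identifiers were named through GENCODE vM21, which held 21774 of them and not the other 250.

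Samples were grouped by the genotype in their labels. Counts were fitted with edgeR 4.0.16 in R 4.3.3 (quasi-likelihood test, TMM scaling, 1 mean per group, all 10 libraries), and p-values were adjusted by the Benjamini-Hochberg method over all 15191 genes that passed filterByExpr (minimum count 10, minimum total 15). The 6833 genes removed held few reads, since 99.97% of counts lay in the genes tested. The threshold was an adjusted p of 0.05. The script was tested on simulated data. TMM factors lay between 0.981 and 1.02. Alternatives were RLE factors, no filter, 1 CPM in every group mean, both compared groups alone, limma-voom (3.58.1) with quality weights, DESeq2 1.42.0, and fits without single libraries or pairs of them. No 2 libraries agreed within sampling noise (lowest chi-square per degree of freedom 4.87), and the libraries come from separate animals.

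Fold changes with their test are given for up to 4 called members per direction and comparison, or else for the 2 with the smallest p. Values in all libraries are given for the member with the highest CPM per kb in each paralog group from 4 to 11 and among groups 1 to 3 and 12 to 13, and for every other tested member of groups 10 and 11. Of each further list, at most 2 called genes per comparison are named. The members and lists, like the marker lists, were chosen with earlier results of these data known. Values of 1 Hox gene and of some markers are not reported here.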

Additional observations from a re-analysis of the deposited data

Results flagged for a closer look

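A group of 5 libraries was searched for a library whose distance from its nearest neighbour takes up most of the group's range, for each of the 37 Hox genes tested, for 4 sums over paralog groups and for the count-weighted mean group. Only M337V has enough libraries, and of 42 such searches 2 found one, and chance gives about 1 in 20. Hoxc12 stood at 3.12 CPM in M337V 9, whereas the other 4 M337V libraries lay between 1.64 and 1.99 CPM (gap over range 0.765, n = 5). Hoxb13 stood at 2.4 CPM in M337V 3, whereas the others lay between 0 and 0.468 CPM (gap over range 0.805, n = 5).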

How the results depend on the processing

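No paired analysis was possible because the groups share no animal number. The alternative without both WT 8 and M337V 3 was chosen after seeing the data, and all others were listed earlier. The number of Hox genes that passed in M337V against NTg was 0 in edgeR's fit over all libraries, 1 in DESeq2 (Hoxc6), 1 with both groups alone (Hoxc8), 2 without both WT 8 and M337V 3 (Hoxc8 higher, Hoxa11 lower), and 0 to 1 with a single library left out. In WT against NTg it was 3, 0 in limma-voom, 0 without both the library labelled NTg 4 and WT 8, 5 without both WT 8 and M337V 3, 1 with both groups alone (Hoxb9), and 0 to 7 with a single library left out. In M337V against WT it was 0, 3 in DESeq2, 2 without both WT 8 and M337V 3 (Hoxb5 and Hoxb8, both higher), and 0 to 1 with a single library left out (Hoxc12 without WT 10).

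Over all genes, 651 passed in M337V against NTg, 1315 in limma-voom, 1499 in DESeq2, 1057 with both groups alone, 3 within libraries TDP_2 to TDP_8, 1146 without M337V 7 and 9, 426 without both WT 8 and M337V 3, and 2 (without NTg 6) to 1016 (without WT 10) with a single library left out. In WT against NTg 857 passed, 215 in limma-voom, 1720 in DESeq2, 258 with both groups alone, 142 without both the library labelled NTg 4 and WT 8, and 44 (without NTg 6) to 1086 (without M337V 3) with a single library left out. In M337V against WT 0 passed, 1 with no filter, 30 in DESeq2, 4 without both the library labelled NTg 4 and WT 8, 4 without M337V 7 and 9, 19 without both WT 8 and M337V 3, and 0 to 6 with a single library left out. Where the cause of a difference between settings is not plain from the fewer libraries fitted, it was not tested.

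No direction reversed among the 7 differences given for Hox genes under their rule. Of their 140 values under other settings, 116 kept their side of the threshold, 18 no longer passed and 6 newly passed. For Hoxb9 in WT against NTg the adjusted p ran from 0.000211 to 0.112. The 13 differences of listed and flanking genes kept their direction in all 260 values and their call in 171. The WT mean of groups 10 to 13, 116 CPM, was 220 CPM without WT 8 and 12.6 CPM without WT 10. In WT 8 the tested genes Hoxa11, Hoxd11, Hoxc12, Hoxa13, Hoxb13 and Hoxc13 had 0 counts, each of which allows up to 3. The total of WT 8, 19424118 counts, lay within the range of the other libraries (18724888 to 21041474).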
